A study of Mus musculus with 4 samples.

Results

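4T1 cells, a mouse mammary carcinoma line known for spreading to distant organs, were compared with 4TO7 cells, a sister line from the same parental tumour that disseminates but grows poorly at distant sites. The comparison used the 2 cellular small RNA libraries of a series of 4, the other 2 being extracellular vesicle (EV) libraries of the same lines. Both lines were established cultures, untreated as far as the labels say and grown in DMEM with 10% EV-free serum, and each was represented by 1 library. A difference between them is therefore a difference between these 2 libraries, no spread between cultures could be estimated, and no p-value is given. Members were chosen by summing sense reads of 18 nt or more per mature miRNA and keeping miRNAs with 50 or more reads in either cell library. This kept 208 of the 600 mature miRNAs that had a read in either.

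MicroRNAs are short RNAs cut from hairpin precursors by Drosha and Dicer. They guide Argonaute proteins to messenger RNAs that pair with the seed, bases 2 to 8 of the miRNA, so miRNAs with the same seed share many targets. In carcinoma cells the miR-200 family is known for repressing Zeb1 and Zeb2, transcription factors that switch off E-cadherin. Loss of the family is a known mark of cells that have moved from an epithelial to a mesenchymal state.

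The mature sequences of the miRNAs with the largest differences are shown by shared seed, which is in capitals, because the largest differences gathered in a few families. Sequences and positions are those of RefSeq on GRCm38.p6, where 166 of the 208 miRNAs had an entry. The first 5 sequences are the miR-200 family, whose members carry 1 of 2 seeds. The miR-10 and miR-181 families follow.
miR-200b-3p: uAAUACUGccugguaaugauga
miR-200c-3p: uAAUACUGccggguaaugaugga
miR-429-3p: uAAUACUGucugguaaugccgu
miR-200a-3p: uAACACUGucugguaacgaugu
miR-141-3p: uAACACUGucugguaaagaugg
miR-10a-5p: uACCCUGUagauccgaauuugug
miR-10b-5p: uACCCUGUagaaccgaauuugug
miR-181a-5p: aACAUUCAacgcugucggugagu
miR-181b-5p: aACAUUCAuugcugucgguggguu
miR-181d-5p: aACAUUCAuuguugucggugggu

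Further called miRNAs, none of which shares its seed with another one shown, follow. The first 4 were higher in the 4T1 library and the last 4 lower.
miR-146a-5p: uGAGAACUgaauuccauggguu
miR-155-5p: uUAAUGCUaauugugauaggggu
miR-34a-5p: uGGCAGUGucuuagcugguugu
miR-335-3p: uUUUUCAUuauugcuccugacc
miR-210-3p: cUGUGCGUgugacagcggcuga
miR-152-3p: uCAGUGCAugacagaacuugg
miR-221-3p: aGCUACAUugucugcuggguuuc
miR-542-3p: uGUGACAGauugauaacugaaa

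The 4T1 library held 16220214 reads and the 4TO7 library 13865266, of which 86.4% and 82.1% of the processed reads aligned to the genome. Reads of 18 nt or more on mature miRNAs were a larger part of the 4T1 library (3.11% of genome-aligned reads) than of the 4TO7 library (1.09%), by a ratio of 2.86. The read lengths of the libraries also differed, since reads of 37 nt or more were 3.56% of all reads in 4T1 and 16.1% in 4TO7, and reads below 18 nt were 38.7% and 24.3%. The part of these lengths in the lower miRNA share of 4TO7 cells was not tested. A read was listed under each mature miRNA it matched with up to 1 mismatch, which gave 603186 sense alignments in 4T1 and 177647 in 4TO7. These totals served as library sizes, so every ratio below is a ratio of levels within the miRNA pool, in reads per 1000000 miRNA alignments (RPM). A miRNA at 0 reads could still have been present at up to 4.97 RPM in 4T1 cells and 16.9 RPM in 4TO7 cells, taking 3 counts as the limit.

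Within the miRNA pool most members had similar levels in both lines. A miRNA was called higher or lower where its ratio's 95% interval, exact and conditional on the reads of both libraries (Clopper-Pearson), lay wholly past 2-fold, a range that covers counting error only. By that rule 28 of 208 were higher in 4T1 cells, 11 were lower and 169 were neither, so that 18.8% were called, 13.5% as higher and 5.29% as lower. The minimum of 50 reads equals 82.9 RPM in 4T1 but 281 RPM in 4TO7, so it leaves out more miRNAs that were low in 4T1. At a minimum of 10 reads 29 were higher and 22 lower of 314, and at 1 read 29 were higher and 26 lower of 600, so the excess of higher calls depends on the minimum. The log2 ratio (4T1 over 4TO7, with 0.5 reads added) had a median of 0.17, and 146 miRNAs, or 70.2%, lay within 2-fold. Called-higher miRNAs held 17.5% of the miRNA alignments in 4T1 and 6.57% in 4TO7. The called-lower ones held 1.75% and 4.08%. Counted against genome-aligned reads instead of miRNA alignments, every log2 ratio moved up by 1.50. The calls then became 134 higher and 2 lower, and the share of higher among the called went from 71.8% to 98.5%. TMM and median-of-ratios scaling moved every log2 ratio by 0.05 and 0.06 and gave 28 higher and 10 lower.

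**Figure D1:**
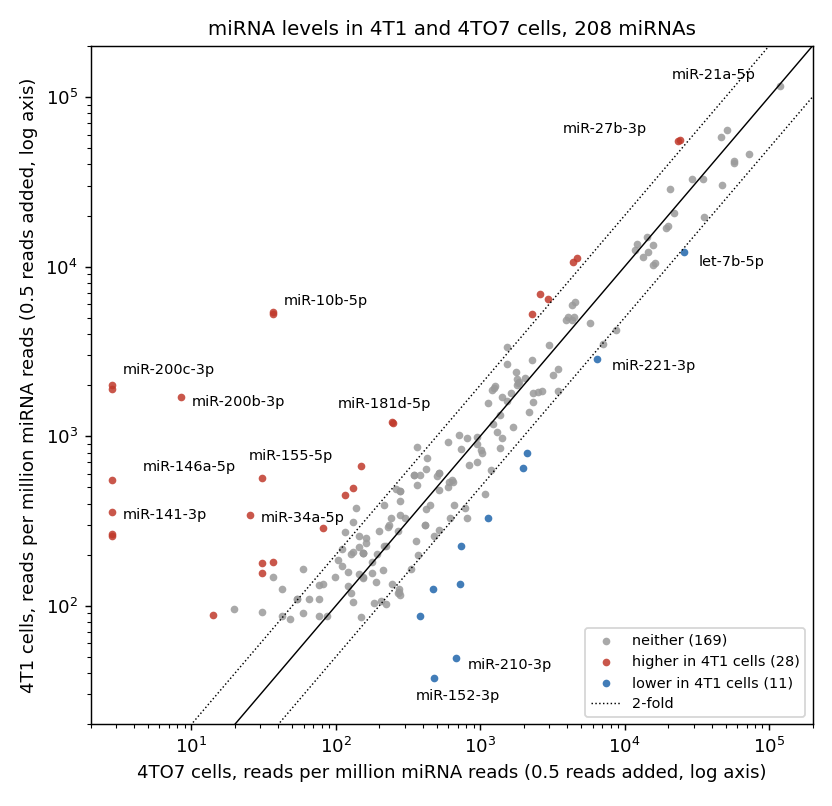
Each point is 1 of 208 miRNAs, placed by its level in 4TO7 cells (x) and 4T1 cells (y) in RPM with 0.5 reads added, both axes logarithmic, with the solid line at equal levels and dotted lines at 2-fold. The 28 miRNAs higher in the 4T1 library (red) reach far from the line at low 4TO7 levels, where the miR-200 members have 0 or 1 reads, whereas the 11 lower ones (blue) lie closer to it, and miR-21a-5p, the most abundant in both, lies on it.

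The miR-200 family gave the widest separation. All 6 compared members were called higher in 4T1 cells, against 13.5% of all 208 miRNAs. The family summed to 4105 reads in the 4T1 library against 1 read in the 4TO7 library, or 6806 against 5.63 RPM. In these bulk libraries, fewer expressing cells and less RNA per cell cannot be told apart. MiR-200c-3p had 1202 reads in 4T1 and 0 in 4TO7, and was at least 118-fold higher with 0 reads taken as the limit of 3 counts. MiR-200a-3p had 1146 reads and 0, at least 113-fold higher. MiR-200b-3p had 1026 reads and 1, a ratio of 302 (54.1 to 11947). The lesser members were at 0 in 4TO7 cells as well. MiR-429-3p had 333 reads in 4T1 cells (at least 32.7-fold higher), miR-141-3p 215 (at least 21.1-fold) and the passenger arm miR-200a-5p 159 (at least 15.6-fold). The exact two-sided intervals reach somewhat lower than these bounds, to 95.8 for miR-200c-3p, 91.3 for miR-200a-3p, 26.4 for miR-429-3p and 12.5 for miR-200a-5p. The members that missed the minimum of 50 reads, miR-200b-5p with 14 reads, miR-141-5p with 6 and miR-200c-5p with 4 in 4T1 cells, were also at 0 in 4TO7 cells. The family's median log2 ratio was 7.64, or 5.92 with the 5 members at 0 set to their bounds, against the median of 0.17 over all 208.

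The 2 miR-200 genes behaved alike. MiR-200c and miR-141 are encoded together on chromosome 6 (GRCm38.p6, 124717914 to 124718390, minus strand). MiR-200b, miR-200a and miR-429 are encoded on chromosome 4 (156053905 to 156055750, minus strand), where the miR-200a hairpin lies in an intron of Ttll10. By seed, miR-200a-3p and miR-141-3p together had 1361 reads in 4T1 and 0 in 4TO7. MiR-200b-3p, miR-200c-3p and miR-429-3p together had 2561 reads and 1. Both seeds of the family were thus at 0 or 1 reads in the 4TO7 library. MiR-200b-3p and miR-200c-3p differ at 2 of 22 positions and within 18 nt by as little as 1, so trimmed reads could count for both, and their counts are not fully independent.

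Other miRNAs linked to epithelial cells were not called higher. MiR-203-3p, an inducer of differentiation in stratified epithelium, had 227 reads in 4T1 and 24 in 4TO7, a ratio of 2.79 (1.83 to 4.44) that was not called. MiR-205-5p, which also targets the Zeb factors, went the other way with 0 reads in 4T1 and 41 in 4TO7, below the minimum for a call. The epithelial markers as a whole (miR-200 members, miR-203 and miR-205) summed to 7182 RPM in 4T1 cells, with 6 of 7 detected, and 377 RPM in 4TO7 cells, with 3 of 7 detected. Markers of mesenchymal or stromal cells summed to 28.2 RPM in 4T1 cells, with 4 of 6 detected, and 259 RPM in 4TO7 cells, with 2 of 6 detected, and none reached the minimum for a call. Among them miR-199a-5p had 6 and 12 reads and miR-199a-3p 1 and 11, the miR-199b arms were listed with equal counts, and miR-143-3p and miR-145a-5p had no read in 4TO7 cells. Of the defining epithelial markers the labelled mammary carcinoma line 4TO7 thus had reads for miR-203 and miR-205 and 1 read of miR-200b. The endothelial marker miR-126a-3p had 83 reads in 4T1 and 33 in 4TO7, a log2 ratio of -0.45 that was not called. The haematopoietic markers had 1 read in 4T1 and 0 in 4TO7, the neural marker was at 0 in both, and the liver marker miR-122-5p had 1 read in each.

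MiR-10a-5p and miR-10b-5p, which are encoded in Hox gene clusters and of which miR-10b is known as a promoter of breast cancer invasion, came next. MiR-10b-5p had 3260 reads in 4T1 and 6 in 4TO7, a ratio of 160 (73.4 to 436). MiR-10a-5p had 3147 reads and 6, a ratio of 154 (70.9 to 421). These are one measurement rather than 2, since the pair differs at 1 of 23 positions and a read of either was listed under both. The Hox-cluster list of 4 had 2 members higher and none lower, against 13.5% higher among all 208 miRNAs. Its median log2 ratio was 3.49, a value that no member was near. MiR-196a-5p and miR-196b-5p, also from Hox clusters, were not called, with 223 against 74 reads (log2 -0.18) and 235 against 79 (-0.20). This pair too differs by 1 mismatch and shares reads. The miR-10b hairpin lies in introns of Hoxd3 and Hoxd4 on chromosome 2 (74726070 to 74726137, plus strand) and the miR-10a hairpin on chromosome 11 (96317165 to 96317274, plus strand) in no annotated host.

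**Figure D2:**
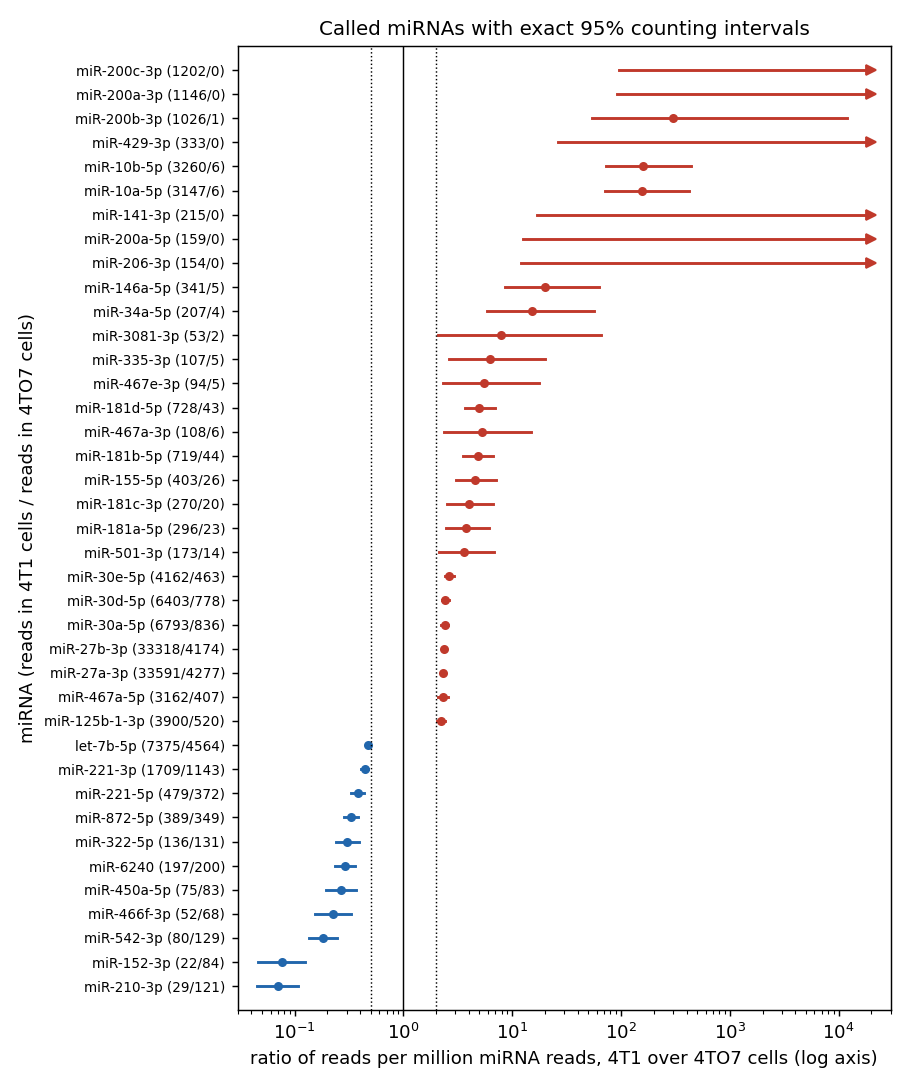
The ratio of levels in 4T1 over 4TO7 cells (x, log axis) with its exact 95% counting interval is drawn for the 39 called miRNAs, with the reads of both libraries beside each name; arrows mark the 6 miRNAs at 0 reads in 4TO7 cells, which have no upper limit. The miR-200 and miR-10 members sit at the top, miR-30 and miR-27 members have narrow intervals just above 2, and miR-152-3p and miR-210-3p lie lowest.

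The miR-181 family, known from lymphocyte differentiation, was higher throughout. All 4 compared members were called higher, against 13.5% of all 208 miRNAs. Their median log2 ratio was 2.10, with a range from 1.89 to 2.30. MiR-181d-5p had 728 reads in 4T1 and 43 in 4TO7, a ratio of 4.99 (3.66 to 6.95). MiR-181b-5p, which differs from it at 1 of 23 positions and shares its reads, had 719 and 44 (ratio 4.81). MiR-181a-5p had 296 and 23 (3.79, interval 2.48 to 6.07), and miR-181c-3p 270 and 20 (3.98, 2.52 to 6.61). The seed shared by miR-181a, miR-181b and miR-181d thus had 1743 reads against 110. The members below the minimum had more reads in 4T1 cells too, with 24 against 0 for miR-181a-1-3p and 12 against 1 for miR-181c-5p.

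Both compared miRNAs known as NF-kB targets were higher, against 13.5% of all 208 miRNAs. MiR-146a-5p, which dampens signalling through Traf6 and Irak1, had 341 reads in 4T1 and 5 in 4TO7, a ratio of 20.1 (8.52 to 62.3). With reads of 21 nt or more its log2 ratio went from 4.19 to 5.35, since 2 of the 5 reads in 4TO7 were that long. MiR-155-5p, an inflammatory miRNA processed from an exon of Mir155hg, had 403 and 26, a ratio of 4.56 (3.07 to 7.07). MiR-146b-5p, which differs from miR-146a-5p at 2 of 22 positions but comes from another locus, had 17 reads in 4T1 and 24 in 4TO7 and was below the minimum for a call. On the level scale that is 28.2 against 135 RPM, the opposite order to miR-146a-5p.

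MiR-34a-5p, a p53-induced miRNA, had 207 reads in 4T1 and 4 in 4TO7, a ratio of 15.2 (5.86 to 56.5). MiR-335-3p, encoded in an intron of Mest, had 107 and 5 (6.30, 2.62 to 19.8). Its partner arm miR-335-5p, known as a suppressor of human breast cancer metastasis, had 6 reads and 1, too few to compare. MiR-206-3p, a skeletal muscle miRNA, had 154 reads in 4T1 and 0 in 4TO7, at least 15.1-fold higher by the same limit of 3 counts (exact interval from 12.1), and was the muscle marker detected in either library. In 4TO7 cells it had 16 reads of 16 or 17 nt, and with reads of 16 nt or more its log2 ratio was 1.58 and no longer called, so its size rests on the length minimum. MiR-501-3p, with 173 and 14 reads (ratio 3.64), and miR-3081-3p, with 53 and 2 (7.80, 2.06 to 66.1), were also higher.

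Among abundant miRNAs the separations were smaller but rested on many more reads. MiR-27a-3p and miR-27b-3p, known as inhibitors of fat cell differentiation, held 5.57% and 5.52% of the 4T1 miRNA pool and 2.41% and 2.35% of the 4TO7 pool. Their ratios of 2.31 (2.24 to 2.39) and 2.35 (2.28 to 2.43) again come from shared reads, since the pair differs at 1 of 21 positions. With reads of 21 nt or more the log2 ratios fell from 1.21 to 0.85 and from 1.23 to 0.87, and neither was called. In 4T1 cells 55.0% of miR-27a-3p reads were 21 nt long, against 73.8% in 4TO7 cells. Their cluster partners were not called, with miR-23a-3p at a log2 ratio of 0.31 and miR-24-3p at 0.09. The miR-23/27/24 list had 2 of 7 higher, none lower and a median of 0.30, while 13.5% of all 208 miRNAs were higher.

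Of the 10 compared members of the miR-30 family 3 were higher and none was lower, with a median log2 ratio of 0.35. Of all 208 miRNAs 13.5% were higher, with a median of 0.17. MiR-30a-5p had 6793 reads and 836 (ratio 2.39, 2.23 to 2.57), miR-30d-5p 6403 and 778 (2.42, 2.25 to 2.61) and miR-30e-5p 4162 and 463 (2.65, 2.40 to 2.92). MiR-30a-5p and miR-30e-5p differ at 1 of 22 positions, so these counts overlap. MiR-30d-5p had no sequence entry, so its overlap with miR-30a-5p, whose counts lie near its own, was not checked. The 3 calls may thus not be separate measurements. MiR-30c-5p (log2 0.08) and miR-30b-5p (-0.65), with the same seed, were not called. In the miR-99, miR-100 and miR-125 list, miR-125b-1-3p was higher with 3900 against 520 reads (ratio 2.21, 2.02 to 2.43), while the main arm miR-125b-5p had a ratio of 1.38 (1.33 to 1.43).

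The miRNAs lower in 4T1 cells were led by miR-210-3p, the best known hypoxia-induced miRNA. It had 29 reads in 4T1 and 121 in 4TO7, 14.2-fold lower (9.38 to 22.0). MiR-152-3p, encoded in an intron of Copz2 and a repressor of Dnmt1, had 22 and 84 reads, 13.0-fold lower (8.03 to 21.8). These were the only called-lower miRNAs that were still called with genome-aligned reads as the library size, at log2 ratios of -2.30 and -2.17. MiR-148a-3p, with the same seed as miR-152-3p, had 2107 and 1251 reads, a log2 ratio of -1.01 whose interval crossed the 2-fold limit, and miR-148b-3p was at -0.48. The list of miR-148 and miR-152 had 1 of 5 lower, none higher and a median of -1.01, while 5.29% of all 208 miRNAs were lower.

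A pair of polycistrons on the X chromosome, with 7 and 3 members compared, held 5 of the 11 lower miRNAs, while 5.29% of all 208 were lower. Among the 5, miR-221-3p and miR-221-5p are the 2 arms of 1 hairpin. In the cluster that runs from miR-322 to miR-450b, of which miR-322 and miR-503 are known to slow the cell cycle, all 7 compared members had log2 ratios below 0 and 3 were called lower, none higher, with a median of -1.25. Over all 208 miRNAs the median was 0.17 and the lower quartile -0.45. MiR-542-3p had 80 and 129 reads, 5.48-fold lower (4.11 to 7.33). MiR-450a-5p had 75 and 83 (3.76-fold, 2.72 to 5.21), and miR-322-5p 136 and 131 (3.27-fold, 2.55 to 4.19). The other 4 ranged up to -0.75 for miR-503-5p and were not called. In the cluster of miR-221 and miR-222, whose members repress the cell cycle inhibitor p27 and are known from basal-like breast cancer, the members split. MiR-221-3p had 1709 and 1143 reads, 2.27-fold lower (2.11 to 2.45), and miR-221-5p 479 and 372, 2.64-fold lower (2.30 to 3.03), whereas miR-222-3p had 150 and 28 (ratio 1.58, 1.05 to 2.45) and was not called. With genome-aligned reads as the library size none of these 5 was called, and miR-221-3p (0.32) and miR-221-5p (0.10) turned to log2 ratios above 0.

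Let-7b-5p, of the let-7 family that represses Lin28, Ras and Hmga2, was the most abundant called-lower miRNA. It had 7375 reads in 4T1 and 4564 in 4TO7, or 1.22% and 2.57% of the pool, 2.10-fold lower (2.02 to 2.18). This call lay close to the limit. It was lost with TMM scaling (log2 -1.02) and at a minimum of 21 nt (-1.04), and genome-aligned reads as library size gave 0.43. The other 17 compared let-7 members were neither, while 5.29% of all 208 miRNAs were lower. The family's median log2 ratio was -0.35, and single members ran from 0.77 for let-7f-2-3p (66 and 11 reads) down to let-7b-5p itself. Let-7a-5p (-0.66), let-7c-5p (-0.87) and let-7f-5p (-0.63) lay below 0 and let-7i-5p (0.32) above. Let-7b-5p and let-7c-5p differ at 1 of 22 positions, so let-7 counts overlap. MiR-872-5p, in an intron of Ift74, had 389 and 349 reads and was 3.05-fold lower (2.63 to 3.53).

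The remaining lower entries, miR-6240 with 197 and 200 reads and miR-466f-3p with 52 and 68, rest mostly on reads away from the annotated start or shorter than 21 nt. MiR-6240 was no longer called with reads of 21 nt or more (log2 -0.91). Of its reads, 1.02% began at the annotated start in 4T1 and 0% in 4TO7. MiR-466f-3p had 1 read of 21 nt or more in 4T1 and 0 in 4TO7.

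**Figure D3:**
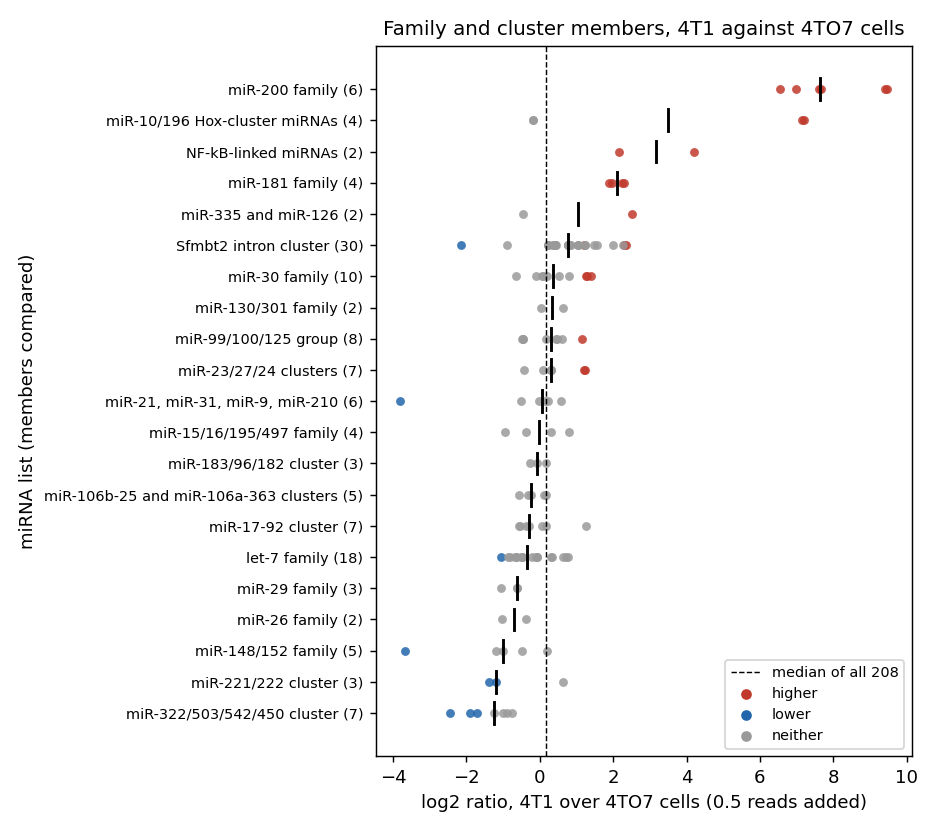
Log2 ratios of 4T1 over 4TO7 cells (x, with 0.5 reads added) are drawn for the compared members of each miRNA list with 2 or more, as points coloured by call, with a black bar at the list's median and a dashed line at the median of all 208. All members of the miR-200 and miR-181 lists are red, all members of the list that starts with miR-322 lie left of 0, and the miR-17-92 and miR-106b-25 lists lie near 0 apart from miR-92a-3p.

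Several tumour-associated clusters had no called member, but 169 of all 208 miRNAs were also neither, so this does not set them apart. The miR-17-92 polycistron, a proliferation-linked oncogenic cluster, had 7 members compared and a median log2 ratio of -0.29. Its summed level was 25347 RPM in 4T1 cells and 25348 RPM in 4TO7 cells. Within it, miR-92a-3p stood highest at a ratio of 2.39 (1.84 to 3.15) and miR-19a-3p lowest at 0.680. The miR-106b-25 and miR-106a-363 clusters had 5 compared (median -0.24), the miR-183 cluster with miR-96 and miR-182, known from sensory organs and tumours, had 3 (median -0.09), the miR-29 family, which represses collagen genes, had 3 (-0.63), and miR-15/16 had 4 (-0.04). MiR-17-5p and miR-106a-5p differ by 1 mismatch, so reads can count in the lists of both clusters. Neither the 2 compared members of the miR-26 family (median -0.71) nor the 2 of the miR-130 and miR-301 family (0.33) were called, and no member of the miR-212 and miR-132 cluster reached the minimum. MiR-31-5p, a miRNA lost in many metastatic human breast cancers, had 2092 reads and 531 (ratio 1.16, 1.05 to 1.28). MiR-9-5p, a repressor of E-cadherin, had 8193 and 2178 (1.11, 1.06 to 1.16). With genome-aligned reads as the library size, members of these lists had log2 ratios higher by 1.50, and miR-9-5p (1.65), miR-31-5p (1.72) and miR-20a-5p (1.57) were among those then called higher.

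The top of both pools was nearly the same. MiR-21a-5p, an oncogenic miRNA abundant in most carcinomas, was first in both with 69634 reads (11.5%) in 4T1 and 21024 (11.8%) in 4TO7, a ratio of 0.975 (0.961 to 0.991). Of the 10 most abundant miRNAs, 8 were common to both libraries, namely miR-21a-5p, let-7a-5p, let-7i-5p, let-7j, miR-100-5p, miR-99a-5p, miR-99b-5p and miR-182-5p. The other 2 were miR-27a-3p and miR-27b-3p in 4T1 cells and let-7c-5p and let-7f-5p in 4TO7 cells. The 8 are not separate measurements, since a read was listed under each miRNA within 1 mismatch. Let-7j (38515 and 9076 reads) is that close to let-7i-5p (35168 and 8316). MiR-100-5p (25121 and 10223) is that close to miR-99a-5p (24550 and 10083). In 4T1 cells 80.6% of let-7j reads were 22 nt long, although its mature form has 24 nt. MiR-100-5p held 4.16% and 5.75% and miR-182-5p 3.27% and 3.48%. The level of miR-21a-5p per genome-aligned read was higher in 4T1 cells, at a log2 ratio of 1.47.

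The Dlk1-Dio3 cluster, a large imprinted set on chromosome 12, had 1 read in 4T1 and 3 in 4TO7 over all its listed miRNAs. The list for the cluster in an intron of Sfmbt2, a rodent-specific array of near-identical hairpins, had 30 members compared. It was matched by name rather than position, and takes in miR-467f on chromosome 11, miR-466k on chromosome 3 and miR-466i-3p on chromosome 13. Its values are thus not those of the intron cluster alone. Of the 30, 3 were higher, 1 lower and 28 had log2 ratios above 0, with a median of 0.78. Of all 208 miRNAs 13.5% were higher and 5.29% lower, with a median of 0.17 and an upper quartile of 0.76. MiR-467a-5p had 3162 reads in 4T1 and 407 in 4TO7 (ratio 2.29, 2.06 to 2.54), miR-467a-3p 108 and 6 (5.30) and miR-467e-3p 94 and 5 (5.54). MiR-467e-3p was no longer called with reads of 21 nt or more (log2 2.04). Near-identical entries in this list share reads, so its members are not separate measurements. Some had equal counts, such as miR-669a-3p and miR-669o-3p with 366 and 92 each.

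Arm choice, the share of a hairpin's reads from its 5p side, differed little between the lines for most entries. Of 106 hairpins with 50 or more reads over both arms in each library, 5, or 4.72%, differed by 10 points or more with intervals apart. The median absolute difference was 0.38 points, and 89 hairpins lay within 5 points. Both values include entries with reads on 1 arm only in both libraries, whose difference was 0. For some of these the arms were named apart, so their arm choice was not compared. An example is miR-125b (5p, 17289 and 3690 reads) and miR-125b-1 (3p, 3900 and 520). MiR-140, a cartilage-linked miRNA, had 39.6% of its reads on the 5p arm in 4T1 (35.2% to 44.0%) and 50.9% in 4TO7 (44.1% to 57.8%). MiR-106b had 34.1% and 45.4%, and miR-30e 89.1% and 77.9%. MiR-30e-5p differs from miR-30a-5p at 1 of 22 positions, so reads of the miR-30a hairpin (91.7% and 86.9%, not called) can enter the miR-30e share. MiR-31 fell just short at 78.0% and 68.0%. The other called hairpins, miR-466f with 41.6% and 2.86% and miR-669o with 30.8% and 17.9%, belong to the Sfmbt2 list of near-identical names. The miR-466f share in 4TO7 rests on 68 reads of miR-466f-3p. Of these 0% began at the annotated start and 82.4% were 18 nt long.

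**Figure D4:**
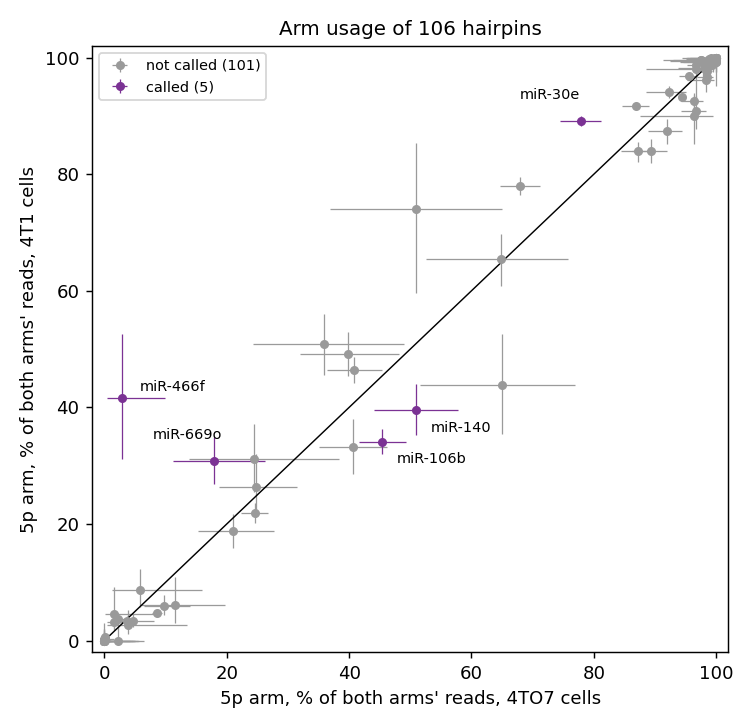
Each point is 1 of 106 hairpins, placed by the percent of its reads that came from the 5p arm in 4TO7 cells (x) and 4T1 cells (y), with exact 95% binomial intervals as bars and the diagonal at equal shares. Most hairpins lie at the corners near 0% or 100% in both lines, and the 5 called hairpins (purple) are named. Entries with reads on 1 arm only lie exactly at a corner.

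The ends of miRNA reads were also mostly alike. Among 119 miRNAs with enough reads in both libraries, the share of reads at the annotated start differed by 10 points or more, with intervals apart, for 1, or 0.84%, namely miR-466i-3p (81.2% in 4T1 and 38.1% in 4TO7). The most common length was the same for 109 of the 119, and the median difference in mean length was -0.04 nt. Some abundant miRNAs had a less uniform 3' end in 4T1 cells, and others a more uniform one. MiR-23a-3p had 53.3% of its reads at 21 nt in 4T1 and 87.0% in 4TO7, and miR-221-3p 56.8% and 83.2% at 23 nt. MiR-100-5p (81.5% and 75.1% at 22 nt) and miR-30a-5p (79.9% and 72.0% at 22 nt) went the other way. MiR-21a-5p was alike in both, with 89.1% and 89.0% at 22 nt. MiR-106b-3p peaked at 21 nt in 4T1 cells and 22 nt in 4TO7 cells, and miR-149-5p at 20 nt and 23 nt.

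The EV libraries, which share no library with the cell comparison, were read for the same line ratio in another compartment. In EVs 82 miRNAs reached 50 reads in either library, of which 20 were higher (24.4%) and 14 lower (17.1%) in 4T1, and 80 of them were compared in cells too. Across these 80 the log2 ratios in cells and EVs correlated with Pearson's r at 0.74 and Spearman's rho at 0.45, over miRNAs that share reads and are not replicates. Of the 16 miRNAs higher in 4T1 cells, 12 were also higher in 4T1 EVs, 2 were lower and 2 were neither. The 12 were miR-200a-3p, miR-200b-3p, miR-200c-3p, miR-10a-5p, miR-10b-5p, miR-206-3p, miR-146a-5p, miR-30a-5p, miR-30d-5p, miR-30e-5p, miR-27a-3p and miR-27b-3p. This count lends no support to the cell calls. The miR-200 members, miR-206-3p (56 and 0 EV reads), miR-146a-5p and miR-30e-5p (260 and 36) reached 50 EV reads only in 4T1, which favours a higher call. The miR-10a and miR-10b, miR-27a and miR-27b, and miR-30a and miR-30e pairs also share reads. MiR-200c-3p had 108 reads in 4T1 EVs and 0 in 4TO7 EVs, miR-200b-3p 162 and 0, and miR-146a-5p 73 and 3. The miR-10 pair was less far apart in EVs, with log2 ratios of 1.48 for miR-10b-5p (207 and 66 reads) and 1.46 for miR-10a-5p, against 7.21 and 7.16 in cells. With reads of 21 nt or more the EV values were 2.47 and 2.40, and the most common EV length was 22 nt in 4T1 and 18 nt in 4TO7. That length minimum also moved the EV log2 ratios of miR-200a-3p from 4.73 to 6.80, of miR-30a-5p from 1.65 to 2.37, of miR-30d-5p from 1.61 to 2.32 and of miR-30e-5p from 2.67 to 3.44. MiR-181b-5p and miR-181d-5p, which were neither in EVs, went from -0.13 to 1.92 and from -0.12 to 1.96. MiR-181a-5p and miR-125b-1-3p, higher in 4T1 cells, were lower in 4T1 EVs at log2 ratios of -1.42 and -1.64, but not called at 21 nt or more (0.27 and -1.32). Of the miRNAs lower in 4T1 cells 2 could be compared in EVs, and miR-221-3p (-0.86) and let-7b-5p (-0.95) were neither there.

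**Figure D5:**
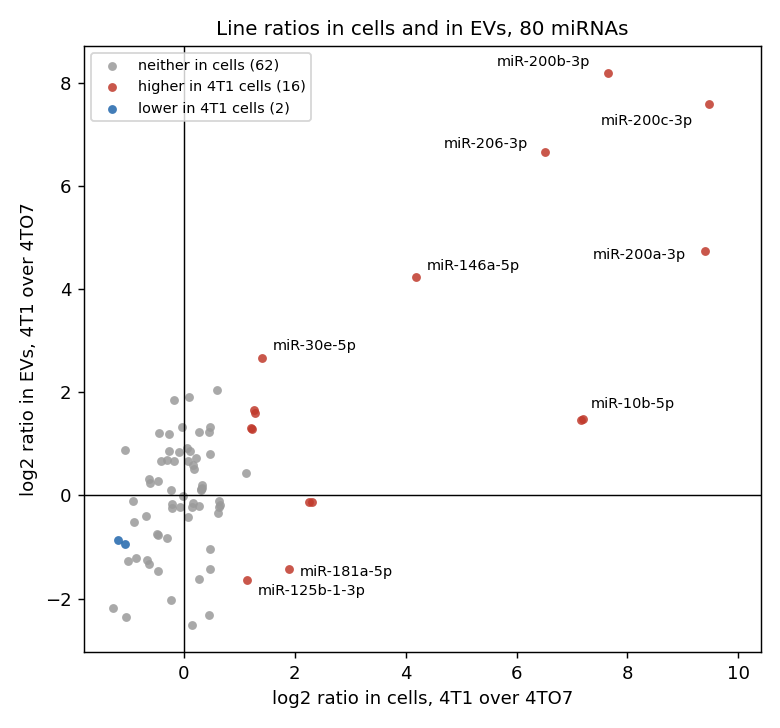
The log2 ratio of 4T1 over 4TO7 in cells (x) is drawn against that in EVs (y) for 80 miRNAs compared in both, coloured by the call in cells. The miR-200, miR-206 and miR-146a points lie far up on both axes, the miR-10 pair lies far right but lower, and miR-181a-5p and miR-125b-1-3p lie right of 0 and below 0.

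Outside the mature miRNA tables, the genome clusters (mm9 regions with at least 1300 alignments, listed separately per library) gave the wider small RNA content. The 4T1 library listed 1877 clusters and the 4TO7 library 1171, and their overlaps formed 1045 matched regions. A match can cover different widths in the 2 libraries, and 926 (88.6%) covered the same number of nt in both. Of these 926, 121 (13.1%) had a share of genome-aligned reads more than 2-fold higher in 4T1 cells and 38 (4.1%) more than 2-fold lower, with a median ratio of 1.03. Over all 1045 the sums gave 140 (13.4%) and 40 (3.83%), and the shares per covered nt gave 124 and 51. Of the 140 higher sums 122 were also more than 2-fold higher per covered nt. Matched regions took in 94.2% of the 4TO7 clusters and 57.4% of the 4T1 clusters, a figure that moves with depth. The cluster the authors labelled mir-21 (chromosome 11, 86397618 to 86397668, 50 nt in both) had 600815 alignments against 174386, a ratio per genome-aligned read of 2.88. All miRNA reads of 18 nt or more gave 2.86, but they numbered 419516 and 122560, fewer than this cluster held. These ratios thus count unlike sets of reads, and which reads make up the cluster was not tested.

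The largest regions went the other way. The region labelled Erf1 (chromosome 17, 39984131 to 39985206) had 2026571 alignments over 1075 nt in 4T1 and 2437775 over 1000 nt in 4TO7, with 3 listed clusters in each. Per genome-aligned read and covered nt this was 1.55-fold lower in 4T1, and the ratio of sums gave 1.44-fold. The region with a small-subunit rRNA label on chromosome 6 (3151275 to 3151576), which covered 275 nt in 4T1 and 300 nt in 4TO7, was 1.26-fold lower per covered nt and 1.38-fold by sums. The 4 regions with an rRNA label had ratios per covered nt between 0.570 and 0.793. Ribosomal RNA had been depleted with a kit in both preparations, and reads with several genome positions were listed at up to 6 of them, so these shares overlap. An unlabelled region on chromosome 13 (25084119 to 25084146), 25 nt wide in both, had the lowest ratio, with 7548 alignments in 4T1 and 123095 in 4TO7, 19.5-fold lower. At the upper end, 4 regions of 25 nt in both libraries on chromosomes 4, 5, 9 and 14 had near-equal totals of 42850 to 42929 alignments in 4T1 cells and 3734 to 3760 in 4TO7 cells, between 9.53-fold and 9.58-fold higher. Near-equal totals can come from 1 set of reads listed at several positions, which was not tested. The largest region listed for 4T1 cells alone lay on chromosome 8 (113586459 to 113586534) with 217268 alignments, and the largest listed for 4TO7 cells alone on chromosome 1 (101200235 to 101200260) with 37426.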

How the data were processed

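Small RNA of 4T1 and 4TO7 cells was extracted with Trizol, depleted of ribosomal RNA, cut from a gel at miRNA size and made into libraries, per the labels' protocols. Trimming and alignment tools named in the submitters' processing notes are cutadapt, Bowtie and bedtools, with genome build mm9 and no versions. The authors deposited raw alignment counts per miRNA, strand, start and length (from 10 nt) and per genome cluster. Per the deposited logs, Bowtie allowed 1 mismatch and listed up to 10 miRNA matches or 6 genome positions per read, and how clusters were chosen is not given in the sources used here.

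Sense reads of 18 nt or more were summed per miRNA with Python 3.11.15 and scipy 1.17.1, and scalings used edgeR 4.0.16. Cell libraries held 16220214 and 13865266 reads. Ratios have exact 95% intervals for counting error only, since reads carry no molecular identifiers. The functions were tested on simulated counts. The members, 28 lists and settings were chosen with earlier results of these data known. Named miRNAs were the 12 largest and the 12 smallest called ratios (all 11 lower ones), the 10 most abundant per library, up to 6 per list with most reads, the 10 hairpins and the regions with the largest differences, and others chosen after their values were seen: those below 50 reads, miR-125b-1-3p and the miRNAs of the length comparison.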

Additional observations from a re-analysis of the deposited data

Results flagged for a closer look

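MiR-125b-1-3p had a line ratio of opposite sign in the 2 compartments. Its log2 ratio of 4T1 over 4TO7 was 1.14 in cells (3900 and 520 reads) and -1.64 in EVs (79 and 221 reads). The difference between compartments was not tested, as each group had 1 library. With reads of 21 nt or more the EV ratio was -1.32 and no longer called.

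MiR-181a-5p showed the same pattern, at 1.89 in cells (296 and 23 reads) and -1.42 in EVs (143 and 342 reads), also untested. Its most common length was 19 nt in EVs, with 87.4% of reads in 4T1 and 89.8% in 4TO7, and 23 nt in cells. With reads of 21 nt or more, 8 and 9 EV reads were left and the log2 ratio was 0.27.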

How the results depend on the processing

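Counting against genome-aligned reads changed most calls, to 134 higher and 2 lower of 208 with a median log2 ratio of 1.68. The miR-23/27/24 list then had 6 higher, the miR-30 family 8 and the Sfmbt2 list 28, and the lists of miR-221 with miR-222 and of the miR-322 cluster 0 lower. Under it log2 ratios changed sign for let-7b-5p (0.43), let-7g-5p (1.44), miR-100-5p (1.04), miR-182-5p (1.41), miR-183-5p (1.23), miR-21a-5p (1.47), miR-221-3p (0.32), miR-221-5p (0.10), miR-25-3p (1.26) and miR-93-5p (1.19). With all lengths and both strands there were 156 higher and 17 lower, and miR-206-3p (-0.0366) and miR-3081-3p (-0.0692) changed sign. An interval past 4-fold left 11 higher and 3 lower, 1 entry per seed gave 15 and 6, and a ratio past 2-fold with no interval gave 21 lower. Minimums of 10, 200 and 1 reads gave 29, 21 and 29 higher and 22, 5 and 26 lower, the last with a median of -0.18. A minimum length of 21 nt left 0 of the miR-23/27/24 list higher, 3 hairpins and 0 starts called, and 0 miRNAs higher in cells but lower in EVs, an alternative chosen after seeing the data. A minimum of 200 reads per hairpin left 3 called. Over 13 alternatives and 101 named miRNAs, 1179 of 1284 values kept direction and call. The 7 miRNAs miR-10a-5p, miR-10b-5p, miR-141-3p, miR-200a-3p, miR-200b-3p, miR-200c-3p and miR-429-3p were called higher under all 13, and no miRNA was called lower under all. A miRNA under 200 reads in both libraries could not pass all 13. Only miR-210-3p (29 and 121 reads) and miR-152-3p (22 and 84) stayed lower with genome-aligned reads, and the minimum of 200 reads left both out. The cause of the other changes was not tested. The count over cluster matches of equal width was also chosen after seeing the data. No paired analysis was possible because each group had 1 library, and no replicate could be left out. Of the cell libraries depth limits 4TO7 most, where the limit of 3 counts is 16.9 RPM. The same limit was higher in EVs, at 51.8 RPM in 4T1 and 58.0 RPM in 4TO7.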

Other observations

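The cell libraries differed in overall read length. Reads of 18 to 24 nt were 31.4% of all 4T1 reads and 26.3% of all 4TO7 reads, and reads of 25 to 36 nt were 26.4% and 33.3%. MiRNA reads of 20 nt were 6.66% of those counted in 4T1 and 3.48% in 4TO7, and the peak at 22 nt took 60.6% and 64.0%.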
